A study of Rattus norvegicus with 36 samples.

Results

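The genes described here belong to the angiotensin system. They are Agtr2, the type 2 angiotensin receptor, Agtr1a, the main type 1 receptor of rodents, and Ace, the angiotensin converting enzyme. They are 3 of the 4736 genes to which the platform annotation gave 1 symbol alone, and they were chosen by their measured levels over the 12 groups of muscle and age, in particular the loss of Agtr2 after birth. Their changes with age are therefore described without a test. Agtr2 had 2 probe sets, Agtr1a had 4 and Ace had 1, which makes 7 of 8799 probe sets. All 7 passed the filter on low values, described next, and were among the 6672 probe sets tested. The single Agtr2 gene lies at chrX:116914320-116918504, Agtr1a at chr17:34383397-34435523 and Ace at chr10:91410129-91430246 in the rat genome build GRCr8, as RefSeq annotates them.

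RNA of rat muscle was hybridised to a rat Affymetrix expression array, which gives 1 intensity per probe set. The samples were extraocular muscle (EOM), the small muscles that turn the eyeball, and leg muscle (gastrocnemius with soleus), at postnatal days 0, 7, 14, 21, 28 and 45. With 3 arrays for each muscle at each age there were 36 arrays in 12 groups. The labels name no treatment, strain or pooling of animals, and whether each replicate came from its own animal is not stated, so a p-value here reflects the scatter among these arrays alone. Intensities were floored at 100.9, a level below which values were given no order, and probe sets above 320.4 on 3 or more arrays entered the tests. Array medians ranged from 418.7 to 652.2, and arrays of a group correlated at 0.877 to 0.953 across probe sets. Acta1, the skeletal muscle actin, was above the floor on all arrays (568.7 to 19581.0), while the 1 probe set for Ckm, the muscle creatine kinase, was at or under the floor on 21 of 36 arrays. In whole muscle, fewer cells of a type and less RNA per cell cannot be told apart. The number of arrays limits the precision of every value.

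In the angiotensin system, renin cuts the liver and tissue protein angiotensinogen to angiotensin I, and Ace, an enzyme anchored on endothelial and some other cells, trims this to the active peptide angiotensin II. The type 1 receptor couples to Gq proteins and phospholipase C, and drives contraction of vessels, growth and aldosterone release. The type 2 receptor is abundant in the mesenchyme of fetal and newborn rodents and scarce in most adult tissues, and it often opposes the type 1 receptor. In muscle the system is known from its vessels and connective tissue cells, and from studies of muscle wasting and repair.

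The stretch of 100 bases before the start that RefSeq's promoter table gives for each gene is shown because the 3 genes took different courses over the same samples. The motifs searched, each on both strands, were the TATA box forms TATAAA and TATATA, which differ in 1 base. The others were the GC box GGGCGG and the E box CANNTG, and capitals mark a match. The sequences are those of RefSeq for GRCr8, 5′ to 3′ on the strand of the gene. The windows are chrX:116914220-116914319 (plus strand) for Agtr2, chr17:34435433-34435532 (minus strand) for Agtr1a and chr10:91410029-91410128 (plus strand) for Ace. For Agtr1a the promoter table and the gene annotation differ on the start, and most of the Agtr1a window lies within the annotated span of the gene given in the opening.
Agtr2: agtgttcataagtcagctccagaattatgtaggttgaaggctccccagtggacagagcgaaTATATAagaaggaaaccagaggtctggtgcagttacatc
Agtr1a: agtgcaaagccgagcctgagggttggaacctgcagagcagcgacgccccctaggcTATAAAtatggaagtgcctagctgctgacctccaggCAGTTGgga
Ace: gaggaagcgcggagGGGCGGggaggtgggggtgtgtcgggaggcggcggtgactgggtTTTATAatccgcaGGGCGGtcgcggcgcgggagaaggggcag
The Agtr2 window held 1 match to TATATA, which 2.35% of 33469 promoter windows of this length held. The Agtr1a window held 1 match to TATAAA (5.78% of windows) and 1 to CANNTG (33.8%). The Ace window held 1 match to TATAAA, on the other strand, and 2 to GGGCGG (21.6%). The base composition differed as well: G and C made up 45% of the Agtr2 window, 58% of the Agtr1a window and 72% of the Ace window, against a median of 54% over all windows. These matches describe the letters of the windows only.

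Agtr2 was well above the floor of the scale in newborn muscle and under it on every array by day 45, in EOM and in leg, by its brighter probe set. This probe set, D16840_s_at, had intensities of 3856.1, 4014.7 and 3558.6 in EOM at day 0, against 3483.7, 5014.3 and 4741.0 in leg. At day 7 it had 1302.4, 1455.5 and 1787.7 in EOM, against 1886.6, 1816.0 and 2599.9 in leg. All 3 EOM arrays thus lay below all 3 leg arrays at that age, while the muscles overlapped at birth. At day 14 the values were 264.5, 252.3 and 516.6 in EOM and 357.4, 431.9 and 552.1 in leg. At day 21 they were 152.7, 211.5 and 108.6 in EOM and 70.3, 216.4 and 136.2 in leg. Every array of day 21 in either muscle was therefore lower than every array of day 14 in the same muscle. At day 28 the probe set read 37.1, 112.8 and 102.6 in EOM and was under the floor on all 3 leg arrays. At day 45 it was under the floor on all 6 arrays, with a highest value of 92.2 in EOM and of 37.2 in leg.

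**Figure D1:**
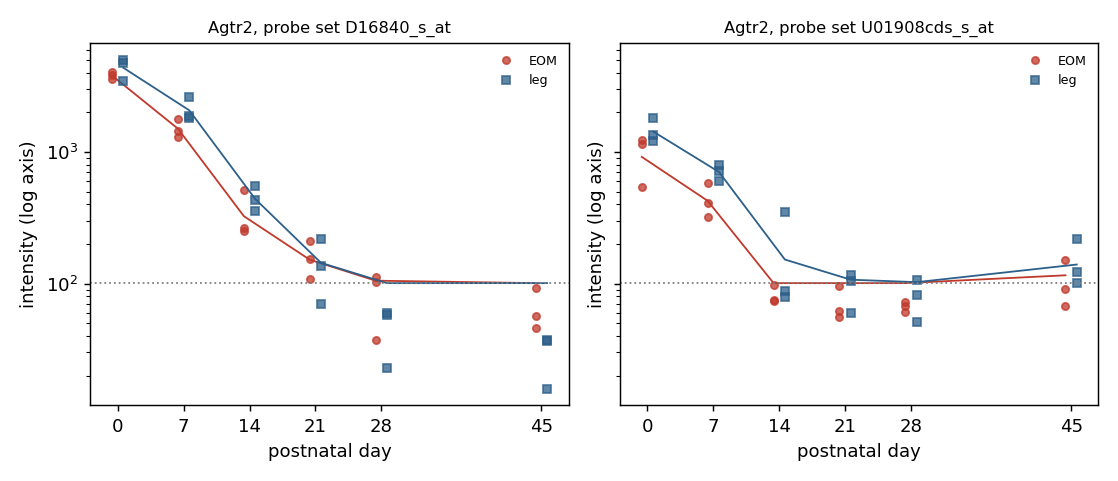
Intensity (log axis) of the 2 Agtr2 probe sets against postnatal day. Points are single arrays of EOM (circles) and leg (squares), lines join the group means of floored log2 values, and the dotted line is the floor of 100.9. The left panel runs from 3483.7 or more at day 0 to under the floor on all arrays at day 45 in both muscles.

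On the log2 scale the day 45 mean of D16840_s_at lay below the day 0 mean by at least 37.7-fold in EOM (−5.24) and at least 43.2-fold in leg (−5.43), the bound being the floor. These were the changes of rank 4 in EOM and rank 5 in leg from the lowest of 6672, which restates what chose the gene. At day 45 all arrays lay below all day 0 arrays, as they did for 23.2% of all probe sets in EOM and 22.6% in leg. Of the steps between neighbouring ages the one from the first to the second week was largest, with day 14 lower than day 7 by 4.62-fold in EOM (−2.21) and 4.71-fold in leg (−2.24). Day 7 was lower than day 0 by 2.53-fold in EOM and 2.10-fold in leg, and day 21 lower than day 14 by 2.14-fold in EOM and by at least 3.06-fold in leg, where 1 array of day 21 was under the floor. At day 14 Agtr2 was already 11.7-fold below day 0 in EOM and 9.91-fold below in leg. Ordered by level, the 12 groups ran from leg and EOM of day 0 through leg and EOM of day 7 and of day 14 to the later ages. Of the 11 pairs of neighbours in this order, 7 overlapped in their arrays, and the gaps lay between EOM of day 0 and leg of day 7, leg and EOM of day 7, EOM of day 7 and leg of day 14, and EOM of days 14 and 21.

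The second Agtr2 probe set, U01908cds_s_at, was dimmer and had the same course, with a Pearson correlation of 0.951 with the first over the 12 group means. It had 1234.4, 1157.7 and 541.3 in EOM at day 0, against 1204.6, 1340.0 and 1818.8 in leg. At day 7 it had 412.9, 582.0 and 320.3 in EOM, against 604.5, 802.5 and 722.4 in leg, so the EOM arrays again all lay below the leg arrays. At day 14 it was under the floor on 3 of 3 EOM arrays and 2 of 3 leg arrays, the exception being a leg array of 347.9. In EOM the day 14 mean was at least 9.10-fold below day 0. By day 45 this probe set read 68.1, 152.2 and 90.9 in EOM and 122.0, 102.0 and 219.1 in leg, so 1 EOM array and the 3 leg arrays lay above the floor at an age where the brighter probe set had none.

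The difference between EOM and leg was tested with limma over all 6672 probe sets, and differences are log2 values of EOM minus leg with the standard error of the fit. Of all probe sets, 31.8% were called at an adjusted p under 0.05 for the mean of the 6 age-matched differences. Of those calls 62.2% were higher in EOM, a share that was 45.6% with arrays scaled to the same median and 51.9% with quantile normalization. For Agtr2 neither probe set was called: D16840_s_at differed by −0.16 ± 0.12 (limma, adjusted p = 0.337) and U01908cds_s_at by −0.39 ± 0.15 (limma, adjusted p = 0.0530). The second value passed the threshold under other scalings, at −0.46 with arrays scaled to the same median (limma, adjusted p = 0.0183) and −0.45 with quantile normalization (limma, adjusted p = 0.0229). The largest difference at a single age was at day 7 for both probe sets, −0.46 ± 0.29 and −0.73 ± 0.38, with limma adjusted p-values of 0.578 and 0.437. At that age 9.2% of all probe sets had 3 EOM arrays below 3 leg arrays, so the separation of the Agtr2 arrays at day 7 was not rare. From day 21 onward the differences of D16840_s_at were 0.08, 0.06 and 0.00, with 1, 4 and 6 of the 6 arrays under the floor at days 21, 28 and 45.

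The 5 genes of 3888 whose group means correlated most with those of D16840_s_at over the 12 groups were Tubb2b, a tubulin of developing cells (r = 0.988), Hnrnpa1, an RNA-binding protein (0.987), Mcm6, a subunit of the replication helicase (0.982), Rad51ap1, a protein of homologous recombination (0.982), and Prpsap1, a partner of phosphoribosyl pyrophosphate synthetase (0.982). The 12 points share the same arrays, and any gene that is high at birth and low later correlates with Agtr2. Between day 45 and day 0 Tubb2b differed by −3.84 in EOM and −4.00 in leg, and Mcm6 by −3.03 in EOM and −3.12 in leg. All 5 genes were lower at day 45 than at day 0 in both muscles, by less than Agtr2.

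Markers of fibroblasts, immature muscle and, in EOM, epithelium also moved with age. Of all probe sets, 31.3% were called between day 45 and day 0 in EOM and 32.8% in leg. Of 17 measured fibroblast and mesenchyme markers, 2 were higher and 6 lower at day 45 in EOM, and 2 were higher and 9 lower in leg. Pdgfra, a receptor of mesenchymal cells, fell by 1.65 ± 0.24 in EOM and by 1.45 ± 0.24 in leg (limma, adjusted p = 2.22e-06 and 1.41e-05), while the collagen gene Col1a1 differed by 0.11 ± 0.18 in EOM and 0.21 ± 0.18 in leg. Another collagen gene, Col3a1, rose by 0.65 ± 0.20 in EOM (limma, adjusted p = 0.0147) and differed by −0.26 ± 0.20 in leg (0.339). Of 13 markers of immature muscle, 2 were higher and 4 lower in EOM, and 2 were higher and 8 lower in leg. Myog, the myogenic factor of differentiating muscle cells, fell by 2.90 ± 0.31 in EOM and by 1.85 ± 0.31 in leg (limma, adjusted p = 1.58e-08 and 2.20e-05). Chrng, another of these markers, differed by −0.31 ± 0.17 in EOM (limma, adjusted p = 0.191) and by −0.98 ± 0.17 in leg (4.40e-05). Of 11 epithelium and gland markers, 0 were higher and 9 lower in EOM, with a median difference of −2.37, and 1 was higher and 2 lower in leg, with a median of −0.55. The part of these cells in the course of Agtr2 was not tested.

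Agtr1a differed little between the ages in EOM by its 3 brighter probe sets and was dimmer in older leg muscle than in newborn leg muscle. By group means, EOM was lower than leg at days 0 and 7 and higher from day 14 in all 4 probe sets. The day 14 sign was weak in X62295cds_s_at (0.14) and M74054_s_at (0.03). Without 1 array these ran from −0.08 to 0.29 and from −0.17 to 0.19. M74054_s_at was at or under the floor on 2 of 3 arrays of each muscle at day 14. Arrays lay apart in both directions at different ages for each of the 4 probe sets, as they did for 6.09% of all probe sets, but whether the ages differ was not tested. The type 1 receptor has a close copy in rodents, Agtr1b on chromosome 2, and the array's probes may not tell the transcripts apart, so values of both are uncertain. The representative probe set, X62295cds_s_at, had 984.0, 1172.5 and 1051.6 in EOM at day 0, against 1189.4, 1354.3 and 1514.5 in leg. It had 979.6, 1114.8 and 884.9 in EOM at day 7, against 1200.9, 1049.3 and 1408.1 in leg. At these early ages the leg arrays tended higher, and at day 0 they lay above all EOM arrays.

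At day 14 X62295cds_s_at read 947.7, 1014.0 and 872.4 in EOM and 633.8, 942.8 and 1056.6 in leg. At day 21 it read 883.6, 1153.7 and 1092.9 in EOM and 782.6, 506.2 and 719.6 in leg. From this age on every EOM array lay above every leg array, as they did for 13.0% of all probe sets at day 21, 15.6% at day 28 and 11.1% at day 45. At day 28 the values were 1024.3, 1025.1 and 961.9 in EOM, against 487.0, 898.5 and 710.1 in leg. At day 45 they were 1392.7, 1400.2 and 1021.4 in EOM, against 907.2, 674.0 and 1008.5 in leg. EOM arrays therefore kept within a range of 872.4 to 1400.2 over the 6 ages, and leg arrays within 487.0 to 1514.5. In the order of the 12 group means, leg of day 0 was highest and leg of day 21 lowest, and all 11 pairs of neighbours overlapped.

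The other Agtr1a probe sets had the same order of muscles. M86912exon_g_at had 860.8, 947.8 and 1256.1 in EOM at day 0, against 1371.6, 2108.2 and 1394.1 in leg. At day 28 it had 1193.5, 1284.8 and 831.1 in EOM, against 478.8, 463.2 and 401.5 in leg, and at day 45 it had 1040.9, 1367.9 and 887.3 in EOM, against 235.4, 389.8 and 491.8 in leg. The groups did not overlap at any of these 3 ages. Of all probe sets, 8.78% had all EOM arrays below all leg arrays at day 0. All EOM arrays lay above all leg arrays for 15.6% at day 28 and 11.1% at day 45. M86912exon_at had 625.1, 1174.1 and 1450.3 in EOM at day 0, against 1575.7, 2465.7 and 2159.1 in leg. At day 45 it had 1244.9, 1486.8 and 1145.7 in EOM, against 693.4, 210.2 and 1210.4 in leg, so that 1 leg array lay among the EOM arrays and the leg group was widely spread. M74054_s_at was dim, at or under the floor on 17 of 36 arrays. It passed the filter through 5 arrays, 3 of them the leg arrays of day 0, which had 322.2, 671.0 and 337.7, against 111.8, 104.9 and 44.2 in EOM. At day 45 it was under the floor on all 3 leg arrays and read 356.4, 153.7 and 68.7 in EOM. The 4 probe sets correlated with each other at 0.677 to 0.919 over the 12 group means, the dim one least.

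**Figure D2:**
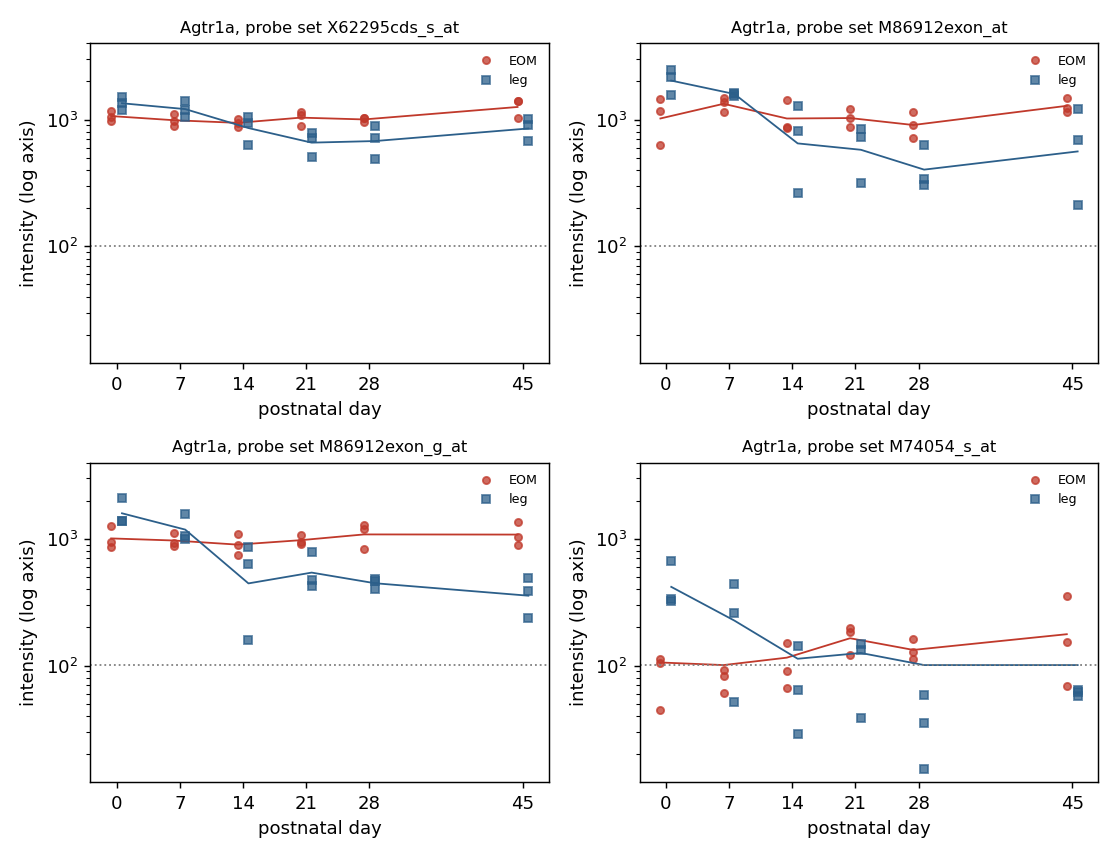
Intensity (log axis) of the 4 Agtr1a probe sets against postnatal day, with single arrays of EOM (circles) and leg (squares), lines through group means of floored log2 values and the floor as a dotted line. The leg line starts above the EOM line at days 0 and 7 and lies below it from day 14 to day 45 in all panels. At day 14 the lines of M74054_s_at nearly meet, 0.03 log2 units apart.

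Between day 45 and day 0 the 3 brighter probe sets of Agtr1a differed little in EOM, by 0.24 for X62295cds_s_at, 0.33 for M86912exon_at and 0.10 for M86912exon_g_at, and the arrays of the ages overlapped. In leg the differences were −0.66, −1.86 and −2.16 in the same order, and day 45 arrays all lay below day 0 arrays, as they did for 22.6% of all probe sets. As a fold, leg of day 45 was 1.58-fold below day 0 by X62295cds_s_at and 4.47-fold below by M86912exon_g_at. The size of the difference in leg thus varied widely between the probe sets.

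The muscle difference of Agtr1a was tested at each age. At day 0 all 4 probe sets were lower in EOM with no overlap between arrays, at differences from −1.98 to −0.34, where 8.78% of all probe sets had EOM arrays below leg arrays. Only M74054_s_at was called, at −1.98 ± 0.42 (limma, adjusted p = 0.00209), and it entered the test through the leg arrays of that age. At day 0 6.32% of all probe sets were called. At day 7 the 4 differences ran from −1.17 to −0.26 and at day 14 from 0.03 to 1.02, with none called, while 4.98% and 4.92% of all probe sets were. Single arrays moved these values: M74054_s_at at day 7 ran from −1.75 without leg replicate 1 (limma, adjusted p = 0.0112) to −0.68 without leg replicate 3 (0.603). M86912exon_g_at at day 14 ran from 0.28 without leg replicate 1 (limma, adjusted p = 0.800) to 1.49 without leg replicate 3 (0.0204). At day 21 they ran from 0.39 to 0.85 with none called (4.03% of all probe sets).

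At day 28 the 4 differences ran from 0.40 to 1.28 and all EOM arrays lay above all leg arrays in the 4 probe sets, as for 15.6% of all probe sets. M86912exon_g_at was called at 1.28 ± 0.38 (limma, adjusted p = 0.0266), beside 11.8% of all probe sets. The call was lost with quantile normalization (limma, adjusted p = 0.0574) and in 5 of the 6 fits that left out 1 array of that age (up to 0.109). At day 45 the differences ran from 0.56 to 1.60, and M86912exon_g_at was called at 1.60 ± 0.38 (limma, adjusted p = 0.00590), beside 10.6% of all probe sets. Without leg replicate 1 of that age it was 1.30 (limma, adjusted p = 0.0546). M86912exon_at at day 45 was 1.20 ± 0.48 (limma, adjusted p = 0.120) and 1.75 without leg replicate 3 (0.0206). For X62295cds_s_at the differences of 0.66 ± 0.23, 0.57 ± 0.23 and 0.56 ± 0.23 at days 21, 28 and 45 had adjusted p-values of 0.110, 0.114 and 0.122 by limma, and at day 28 the value without leg replicate 2 was 0.77 (0.0424).

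Over the 6 ages the early and late differences offset each other. The mean was 0.22 ± 0.09 for X62295cds_s_at (limma, adjusted p = 0.0788), 0.43 ± 0.20 for M86912exon_at (0.0954), 0.63 ± 0.16 for M86912exon_g_at (0.00222) and −0.25 ± 0.17 for M74054_s_at (0.280). The dim probe set had the opposite sign to the others. Without EOM replicate 3 of day 45 the value of X62295cds_s_at was 0.24 (limma, adjusted p = 0.0468), and without leg replicate 2 of day 28 it was 0.25 (limma, adjusted p = 0.0377). M86912exon_at reached 0.51 without leg replicate 3 of day 14 (limma, adjusted p = 0.0393) and 0.53 without leg replicate 3 of day 45 (0.0302). The value of X62295cds_s_at was smaller under other scalings, at 0.13 both with arrays scaled to the same median (limma, adjusted p = 0.328) and with quantile normalization (0.329). The call of M86912exon_g_at held in all settings, with adjusted p-values up to 0.00938.

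**Figure D3:**
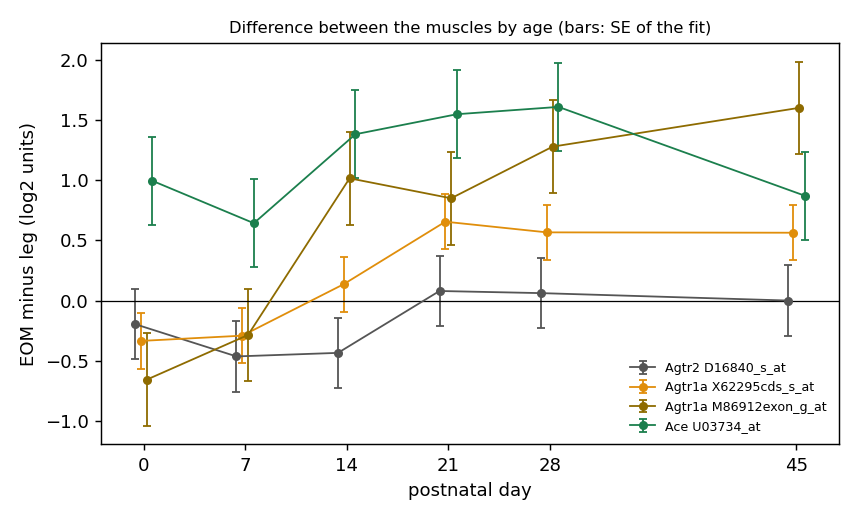
Difference between the muscles, EOM minus leg in log2 units, against postnatal day for Agtr2 (1 probe set), Agtr1a (2 probe sets) and Ace. Points are fitted differences and bars their standard errors. Ace lies above 0 at all 6 ages, Agtr1a lies below 0 at days 0 and 7 and above it later, and Agtr2 lies between −0.46 and 0.08.

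The type 1 receptor copy Agtr1b was read by S37461_f_at at 212.2, 822.9 and 950.5 in EOM at day 0, against 487.9, 791.3 and 986.9 in leg. At day 28 it read 685.2, 447.9 and 346.7 in EOM, against 96.2, 109.3 and 389.9 in leg. Its mean difference over ages was 0.64 ± 0.27 (limma, adjusted p = 0.0668) and it was called at no age. The 4 probe sets annotated to Agtr1b correlated with each other at −0.29 to 0.57 over the 12 group means, so they gave no common course.

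The 5 genes whose group means ran most like those of Agtr1a (X62295cds_s_at) over the 12 groups were Ptpn23, a phosphatase of endosomal sorting (r = 0.909), Wasl, an activator of actin branching (0.907), the receptor Notch2 (0.895), the unconventional myosin Myo1c (0.894) and Ptprc, the common leukocyte phosphatase (0.892). Ptprc differed between day 45 and day 0 by 0.42 in EOM and −1.32 in leg. The summed intensity of 14 leukocyte and mast cell markers was 13192.6 to 14778.6 in EOM at day 0, against 14871.8 to 19125.4 in leg. It was 14062.4 to 16029.9 in EOM at day 28, against 10454.0 to 10660.0 in leg, and the groups overlapped at day 45. Of the 14 leukocyte markers, 0 were called at day 0, day 28 or day 45, and 2 were higher in EOM at day 21. Of 17 fibroblast markers, 2 were higher in EOM at day 0 and 7 at each of days 28 and 45, with 0 lower at these ages. Over all probe sets, 6.32% were called at day 0, 4.03% at day 21, 11.8% at day 28 and 10.6% at day 45. The part of these cells in the difference of Agtr1a was not tested.

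Ace was higher in EOM than in leg, and it was brighter at day 45 than at birth in both muscles. Its probe set, U03734_at, had 1461.5, 896.9 and 734.9 in EOM at day 0, against 517.2, 486.1 and 483.3 in leg. At day 7 it had 1065.8, 1562.3 and 377.9 in EOM, against 355.8, 896.8 and 517.9 in leg. The arrays of the muscles overlapped at day 7 alone, where 1 EOM array was low. At day 14 Ace had 2979.5, 2711.9 and 1433.3 in EOM, against 962.0, 803.0 and 845.5 in leg. At day 21 it had 2371.4, 2274.8 and 2015.0 in EOM, against 819.8, 815.7 and 648.3 in leg. Each EOM array of these ages was brighter than the brightest leg array, as for 12.2% of all probe sets at day 14 and 13.0% at day 21, beside 14.5% at day 0. At day 28 the values were 3200.9, 3659.7 and 2291.1 in EOM, against 1065.9, 855.9 and 1033.9 in leg. At day 45 they were 3119.4, 4367.6 and 2205.8 in EOM, against 2023.9, 1680.0 and 1444.4 in leg.

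**Figure D4:**
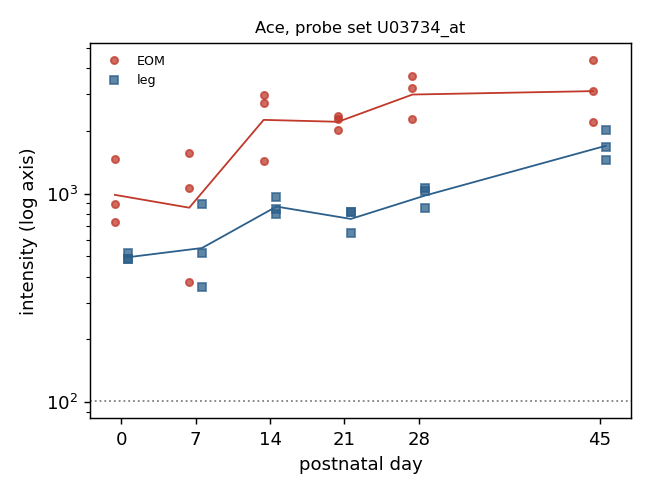
Intensity (log axis) of the Ace probe set against postnatal day, with single arrays of EOM (circles) and leg (squares), lines through group means of log2 values and the floor as a dotted line. The EOM arrays lie above the leg arrays at all ages but day 7, and both muscles are brighter at day 45 than at day 0.

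Between day 45 and day 0 Ace differed by 1.65 in EOM (3.15-fold) and by 1.78 in leg (3.43-fold). All day 45 arrays lay above all day 0 arrays in each muscle, as they did for 16.8% of all probe sets in EOM and 22.3% in leg. The group mean on the log2 scale in EOM was 9.74 ± 1.06 at day 7, 11.14 ± 0.57 at day 14 and 11.60 ± 0.49 at day 45 (SD, n = 3 each). In leg it was 9.10 ± 0.67 at day 7, 9.76 ± 0.13 at day 14 and 10.73 ± 0.24 at day 45 (SD, n = 3 each). In the order of the 12 groups the EOM groups of days 45, 28, 14 and 21 came first, leg of day 45 followed, and leg of day 0 was last. All 11 pairs of neighbours overlapped.

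The mean difference of Ace over the 6 ages was 1.18 ± 0.15, or 2.26-fold (limma, adjusted p = 2.83e-07), with EOM higher at 6 of 6 ages by the means and at 5 of 6 ages by every array. Of all probe sets, 19.8% were called higher in EOM in this comparison and 2.62% had EOM arrays above leg arrays at 5 or more ages. Without any 1 array the mean difference ran from 1.10 to 1.27. By age the difference was called at day 14 (1.38 ± 0.37, limma, adjusted p = 0.0217), day 21 (1.55 ± 0.37, 0.0125) and day 28 (1.61 ± 0.37, 0.00318). It was 1.00 ± 0.37 at day 0 (limma, adjusted p = 0.118), 0.64 ± 0.37 at day 7 (0.513) and 0.87 ± 0.37 at day 45 (0.138). The difference between ages was not tested. The day 14 call was lost in 5 of the 6 fits that left out 1 array of that age (limma, adjusted p up to 0.134), and at day 7 the value ran from 0.21 without EOM replicate 2 (limma, adjusted p = 0.976) to 1.23 without EOM replicate 3 (0.0282).

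Endothelial cells carry Ace on their surface. Of 8 endothelium markers tested, 0 were higher and 1 was lower in EOM over the 6 ages, and 1 was higher at day 45 than at day 0 in each muscle. Pecam1, an adhesion molecule of endothelium, differed by −0.12 ± 0.12 (limma, adjusted p = 0.494) and was measured at 738.0 to 2209.8, and Kdr, a receptor for vascular endothelial growth factor, differed by −0.18 ± 0.16 (limma, adjusted p = 0.424). The summed intensity of the list at day 28 was 9729.8 to 13189.2 in EOM, against 10729.5 to 12734.3 in leg. Of 11 smooth muscle and pericyte markers, 4 were higher and 2 lower in EOM over the ages, beside 31.8% of all probe sets called. Myh11, the smooth muscle myosin, was higher by 1.11 ± 0.17 and Acta2, the smooth muscle actin, lower by −0.70 ± 0.12 (limma, adjusted p = 4.67e-06 and 3.84e-05). Whether the Acta2 probe set reads other actins as well was not checked. Tagln, also on this list, was higher by 0.33 ± 0.11 over the ages (limma, adjusted p = 0.0270). The summed smooth muscle list at day 28 was 30003.9 to 34320.4 in EOM, against 38640.1 to 49750.0 in leg. In log2 values 1 marker was higher and 1 lower in EOM at day 28, with a median difference of 0.15. At day 45, 5 were higher and 0 lower, with a median of 0.83, and the sums overlapped. Of all probe sets 11.8% were called at day 28 and 10.6% at day 45. Of 11 epithelium markers, 10 were higher and 1 lower in EOM at day 0, beside 6.32% of all probe sets called. Their summed intensity at day 0 was 28608.0 to 40847.4 in EOM, against 4666.6 to 8633.8 in leg. At day 28, where Ace differed most, the sums were 3340.3 to 3732.8 in EOM, against 3069.3 to 3687.1 in leg. Of 16 Schwann cell and axon markers, 11 were higher and 1 lower in EOM over the ages, with a median difference of 0.65. Of the 17 fibroblast markers, 9 were higher and 3 lower in EOM over the ages, with a median difference of 0.23. The part of endothelial, smooth muscle, epithelial, nerve and fibroblast cells in the difference of Ace was not tested. With age, 7 of 14 markers of mature muscle were higher at day 45 than at day 0 and 0 lower, in EOM and in leg alike. Between these ages 31.3% of all probe sets were called in EOM and 32.8% in leg.

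The genes whose group means ran most like Ace over the 12 groups were Cnnm4, a magnesium transporter (r = 0.973), F3, the tissue factor of blood clotting (0.955), S100a1, a calcium-binding protein of muscle (0.953), Gaa, the lysosomal glycogen-digesting enzyme (0.942), and Acox2, a peroxisomal oxidase (0.941). All 5 were higher at day 45 than at day 0 in both muscles, by 0.86 to 1.63 in EOM and 0.68 to 1.42 in leg. The members themselves ran differently: over the 12 group means Ace correlated with Agtr2 at −0.69 and with Agtr1a at 0.04, and Agtr1a with Agtr2 at 0.54.

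Upstream of the receptors, the ligand gene Agt, which encodes angiotensinogen, differed by −0.16 ± 0.23 over the ages (limma, adjusted p = 0.645). It read 707.9, 668.2 and 407.9 in EOM at day 0, against 745.9, 533.2 and 559.4 in leg, and 264.7, 1126.1 and 810.4 in EOM at day 45, against 959.9, 301.6 and 1138.4 in leg. The arrays of the muscles overlapped at both ages, and replicates of day 45 differed widely. Among the 13 tested genes for the ligand and for enzymes that form or break down angiotensins, 3 were higher and 2 lower in EOM over the ages, in a comparison that called 31.8% of all probe sets and 19.8% as higher. The median difference of this list was 0.18, against 0.04 for all probe sets.

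The 3 enzyme genes that were higher in EOM encode peptidases. Mme encodes neprilysin, a membrane peptidase that cleaves angiotensin I and II, and was higher by 1.20 ± 0.21 (limma, adjusted p = 2.96e-05). It had 597.9, 703.0 and 478.9 in EOM at day 0, against 42.1, 97.9 and 155.3 in leg, where 2 of 3 arrays lay under the floor. Epithelium markers were also higher in EOM at that age, as given beside Ace. Rnpep, an aminopeptidase that removes basic residues, was higher by 0.70 ± 0.10 (limma, adjusted p = 2.78e-06), and Dpp3, a dipeptidyl peptidase that degrades angiotensin II, by 0.51 ± 0.15 (0.00737), a call lost with arrays scaled to the same median. Nln, the peptidase neurolysin, was lower by −0.47 ± 0.14 (limma, adjusted p = 0.00830). So was Prep, a prolyl peptidase, by −0.47 ± 0.10 (0.000721), a gene named after its value was seen. None of these 5 calls reversed in any setting.

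**Figure D5:**
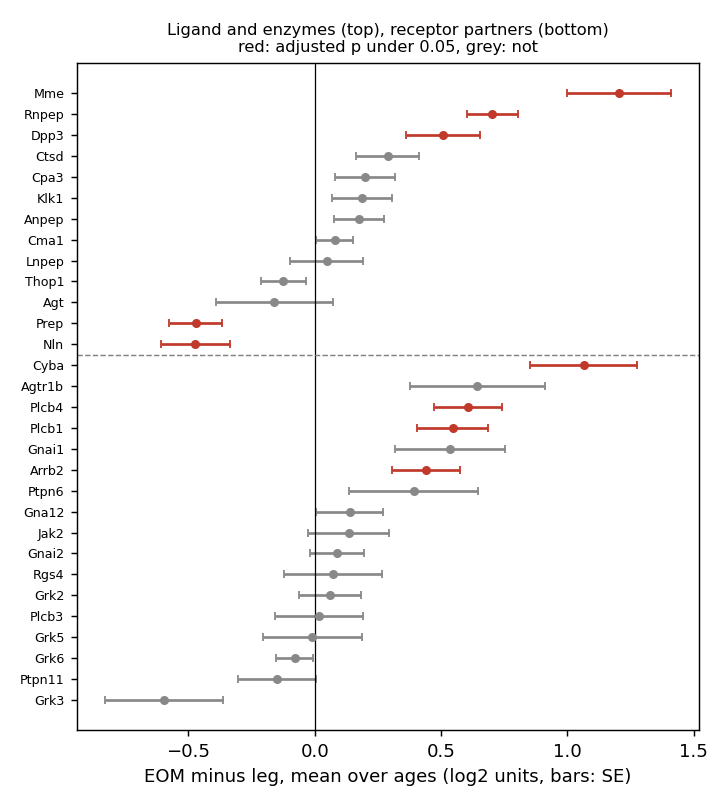
Mean difference over ages, EOM minus leg in log2 units, of 13 ligand and enzyme genes (above the dashed line) and 17 receptor partner genes (below it). Points are fitted differences, bars their standard errors, and red marks an adjusted p under 0.05. Of the 9 called genes, Mme and Cyba lie farthest to the right.

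Klk1, a tissue kallikrein that frees kinins, was lower in EOM than in leg at birth and higher at day 45. It had 2832.9, 2943.4 and 2793.9 in EOM at day 0, against 13103.4, 12993.4 and 15830.8 in leg. At day 45 it had 15129.3, 9637.7 and 5278.3 in EOM, against 2501.2, 2628.9 and 2104.2 in leg. The muscle difference was −2.28 ± 0.29 at day 0 and 1.93 ± 0.29 at day 45 (limma, adjusted p = 1.95e-06 and 3.33e-05), so its mean over ages was 0.19 ± 0.12 (0.243). Kallikreins form a family of near-identical genes in the rat, and which members this probe set reads is uncertain.

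With age, 2 of the 13 ligand and enzyme genes were higher and 1 lower at day 45 than at day 0 in EOM. In leg 1 was higher and 4 lower. Over all probe sets 31.3% were called in EOM and 32.8% in leg. Klk1 was higher by 1.68 ± 0.29 in EOM and lower by −2.54 ± 0.29 in leg (limma, adjusted p = 3.78e-05 and 4.69e-08). Ctsd, the lysosomal protease cathepsin D, was higher in both, by 1.02 ± 0.30 and 1.49 ± 0.30 (limma, adjusted p = 0.00991 and 0.000263), though in EOM the call was lost without replicate 3 of day 45 (0.112). Dpp3 was lower in both, by −1.16 ± 0.36 and −1.33 ± 0.36 (limma, adjusted p = 0.0125 and 0.00400), and in EOM the call was lost without replicate 3 of day 0 or replicate 2 of day 45 (up to 0.0964). The mast cell carboxypeptidase Cpa3 was lower in leg by −1.54 ± 0.29 (limma, adjusted p = 0.000115), as was the mast cell chymase Cma1 by −1.03 ± 0.18 (3.70e-05), which was named after its value was seen. In EOM Cma1 differed by −0.42 ± 0.18 (limma, adjusted p = 0.0762).

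Of 17 tested partners of the receptors (G proteins, phospholipases, kinases, arrestins and others), 4 were higher in EOM over the ages and 0 were lower, beside the 19.8% of all probe sets called higher. Their median difference was 0.13, against 0.04 for all probe sets. The highest was Cyba, a membrane subunit of the NADPH oxidases that type 1 receptors activate, at 1.06 ± 0.21 (limma, adjusted p = 0.000220). Plcb4 and Plcb1, phospholipases that G proteins switch on, were higher by 0.61 ± 0.13 and 0.55 ± 0.14 (limma, adjusted p = 0.000734 and 0.00307), and Arrb2, an arrestin that ends receptor signalling, by 0.44 ± 0.14 (0.0124), a call lost with quantile normalization. Cyba is abundant in leukocytes, whose markers are described beside Agtr1a. At day 21 Cyba was called higher in EOM by 2.31, a call lost in 3 of 6 fits that left out 1 array. The summed leukocyte markers at that age were 13937.3 to 31758.7 in EOM, against 9884.5 to 12824.2 in leg. The part of these cells in the difference of Cyba was not tested. By age, 3 partners were lower and 1 higher at day 45 than at day 0 in EOM, and 2 were lower in leg. These comparisons called 31.3% of all probe sets in EOM and 32.8% in leg. Gnai1, an inhibitory G protein subunit, was lower by −2.06 ± 0.53 in EOM and Rgs4, a brake on G proteins, higher by 1.72 ± 0.47 (limma, adjusted p = 0.00345 and 0.00536). Cyba was lower in EOM by −1.44 ± 0.52 and Plcb1 by −1.03 ± 0.34 (limma, adjusted p = 0.0331 and 0.0220), and the call of Cyba was lost with arrays scaled to the same median, without the filter and without any 1 of the day 0 replicates or replicate 2 of day 45 (up to 0.274). That of Plcb1 was lost without replicate 2 of day 0 or replicate 3 of day 45 (up to 0.0909). Cyba was lower in leg by −1.83 ± 0.52 (limma, adjusted p = 0.00659), with an adjusted p of 0.0582 without leg replicate 1 of day 45. Arrb2 was lower in leg by −0.94 ± 0.33 (limma, adjusted p = 0.0284), a call lost without any 1 of the day 0 replicates or without replicate 1 of day 45.

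In the list of 10 kinin and aldosterone genes tested, 3 were higher and 1 lower at day 45 than at day 0 in EOM. In leg 1 was higher and 1 lower. Between these ages 31.3% of all probe sets were called in EOM and 32.8% in leg. Over the ages, 2 of the 10 genes were higher and 2 lower in EOM than in leg, with a median difference of 0.17. That comparison called 31.8% of all probe sets (19.8% as higher), whose median difference was 0.04. Hsd11b1, the enzyme that regenerates active glucocorticoid, was higher by 0.56 ± 0.12 and Hsd11b2, which inactivates it and so leaves the mineralocorticoid receptor to aldosterone, was lower by −0.72 ± 0.21 (limma, adjusted p = 0.000411 and 0.00877). Nr3c1, the glucocorticoid receptor, was lower by −0.66 ± 0.20 (limma, adjusted p = 0.0106). Sgk1, a kinase that aldosterone induces, was higher by 0.34 ± 0.10 (limma, adjusted p = 0.0114), a call lost under both other scalings. Hsd11b1 had 8118.4, 4947.3 and 6886.3 in EOM at day 45, against 1477.5, 1883.4 and 953.2 at day 0, a difference of 2.23 ± 0.29 (limma, adjusted p = 3.78e-07). In leg the difference was 0.04 ± 0.29 (limma, adjusted p = 0.937). Nr3c1 was 4.01-fold lower at day 45 than at day 0 in EOM (SE 0.48 in log2 units, limma, adjusted p = 0.00171) and differed by −0.50 ± 0.48 on the log2 scale in leg (0.456). Klk1, also in this list, is given above. Sgk1 was higher at day 45 in both muscles, by 0.88 ± 0.25 in EOM and 1.00 ± 0.25 in leg (limma, adjusted p = 0.00729 and 0.00229).

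Among 30 tested genes of other vasoactive systems, 5 were higher and 3 lower in EOM over the ages. This comparison called 31.8% of all probe sets, and 19.8% as higher. Adm, the dilating peptide adrenomedullin, was higher by 0.82 ± 0.17 and Nppc, the C-type natriuretic peptide, by 0.66 ± 0.14 (limma, adjusted p = 0.000453 and 0.000564). The natriuretic peptide clearance receptor Npr3 was lower by −0.64 ± 0.18 (limma, adjusted p = 0.00793). The thromboxane receptor Tbxa2r was higher by 0.70 ± 0.27 (limma, adjusted p = 0.0478), a call lost under both other scalings, without the filter and in 23 of 36 fits that left out 1 array. The calls of Adm, Nppc and Npr3 held in all settings. The median difference of this list was 0.11, against 0.04 for all probe sets.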

How the data were processed

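The deposited table holds 1 linear intensity per probe set and array. The authors ran the arrays by the Affymetrix protocol, per the labels. How probes were summarised was not given in the labels or the table. Between the 2nd and 98th percentiles the array means were 1499.4 to 1501.1, so the deposited intensity values were already on a common scale, and no further scaling was applied. The 20th percentile of the table (100.9, log2 6.66) served as a floor before log2 was taken. The 59 control probe sets were left out, and probe sets above the 40th percentile (320.4) on 3 or more arrays were tested. In the platform annotation of 2016, 7006 probe sets had 1 symbol, 308 had several and 1426 had none. Of the 7006, 6985 matched the RefSeq gene table by gene ID. A probe set annotated to several genes, Ace among them, was left out.

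Group means of the 36 arrays were fitted by limma 3.58.1 (R 4.3.3) using a trended prior, 24 residual and 5.84 prior degrees of freedom, and Benjamini-Hochberg adjustment over 6672 probe sets at 0.05. The fit was tested on simulated data. Each gene is represented by its tested probe set of highest mean. For each member the 5 genes most like it are named, and from each list up to 4 genes past the threshold by size, except as stated. The alternatives were a floor at the 10th percentile, arrays scaled to the same median, quantile normalization, no filter, a replicate block and leaving out each array. The members, lists and tests were chosen with earlier results of these data known.

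Labels number the replicates 1 to 3 in every group. Deviations of same-numbered EOM and leg arrays correlated at over 0.1 in all 3 pairs at days 7 (0.131 to 0.296), 14 (0.106 to 0.165) and 21 (0.101 to 0.369). Same-numbered arrays did not all do so at days 0, 28 and 45, or between day 45 and day 0 of a muscle. Differently numbered arrays were not correlated for comparison, so whether the numbers pair the samples is open, and no label says that they do. Figures were drawn with matplotlib 3.10.9.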

Additional observations from a re-analysis of the deposited data

Results flagged for a closer look

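The Agtr1a probe sets stood out because all EOM arrays lay below all leg arrays at 1 or more early ages and above them at 1 or more later ages. Of all probe sets, 6.09% had arrays apart in both directions, at any ages and in either order. The difference between these ages was not tested. For X62295cds_s_at the log2 difference of EOM minus leg was −0.34 at day 0, 0.66 at day 21, 0.57 at day 28 and 0.56 at day 45. For M86912exon_at it was −0.99 at day 0, −0.26 at day 7, 0.83 at day 21 and 1.17 at day 28. For M86912exon_g_at it was −0.66 at day 0, 0.85 at day 21, 1.28 at day 28 and 1.60 at day 45. For the dim M74054_s_at it was −1.98 at day 0 and 0.40 at day 28, where all 3 leg arrays were under the floor. M74054_s_at passed the filter through 5 arrays, 3 of them the leg arrays of day 0, so its day 0 value is tied to the filter. The probe sets read 1 gene and possibly its copy Agtr1b on the same arrays, so they are not independent of each other.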

How the results depend on the processing

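Of the settings run for the muscle differences of the 7 probe sets, 718 kept their side of the threshold, 19 passed it where the reported value did not, 12 lost it and 0 reversed a call. The day 45 minus day 0 value of Agtr2 (D16840_s_at) was −5.92 in EOM and −6.53 in leg with the floor at the 10th percentile, since the floor itself sets it, and in EOM −5.02 with arrays scaled to the same median and −5.13 with quantile normalization. The mean difference of Agtr1a (X62295cds_s_at) without any 1 array ran from 0.18 to 0.25 and was 0.13 under both other scalings, and that of the second Agtr2 probe set passed the threshold in 7 of 36 such fits (adjusted p down to 0.0289 by limma). Counts of called probe sets without any 1 array were 278 to 390 at day 0 (422 with all), 190 to 294 at day 7 (332), 177 to 333 at day 14 (328), 82 to 343 at day 21 (269), 515 to 694 at day 28 (788) and 439 to 764 at day 45 (706). The lowest were without leg replicate 1 at day 0, EOM replicate 2 at day 7, leg replicate 2 at day 14, EOM replicate 3 at day 21, EOM replicate 2 at day 28 and leg replicate 2 at day 45. With quantile normalization 177 were called at day 21. The cause of these changes was not tested. Under median scaling of the arrays, the share of calls that were higher in EOM was 49.5% in place of 62.1% at day 0 and 69.5% in place of 86.2% at day 21. The median of all probe sets moved there to −0.07 from 0.05 at day 0, to −0.05 from 0.08 at day 21, and to 0.07 from −0.04 between day 45 and day 0 in EOM. With the replicate block 2300 probe sets were called for the mean over ages (2121 without it), 366 at day 7, 461 at day 14 and 352 at day 21, and no call of the 7 probe sets changed. Of 62 calls of pathway genes, 0 reversed in any setting, 14 were lost in a processing setting and 25 without 1 array. Values at the floor limit Agtr2 from day 14 on in its dimmer probe set and from day 21 on in the other, and M74054_s_at throughout.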
